A study of Mus musculus with 2 samples.

Results

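The cells described here are Mirt1/Il1f9/Csf1 neutrophils, mature tumor neutrophils in which at least 2 of the 5 genes Mirt1, Il1f9, Irg1, Csf1 and Hcar2 were detected. They are called members hereafter. A unique molecular identifier (UMI) marks 1 counted RNA molecule. A neutrophil had at least 5 UMIs of S100a8, S100a9, G0s2 and Csf3r together, and more of these than of the macrophage genes Apoe, C1qa, Lyz2 and Csf1r together. It counted as gated mature with fewer than 5 UMIs of the granule genes Camp, Ngp and Ltf, which mark immature neutrophils, and fewer than 5 UMIs of Retnlg and Mmp8. The B score is the number of the 5 genes above with a UMI, and the A score is the same number for Tnfrsf23, Ccdc126, Ciart, Ero1l and Il15. Members had a B score of at least 2 that was not below their A score. Members were thus chosen by UMI detection of these genes in the cells described here, and the values of those genes are given as a description. The rule took 591 of 3220 barcodes that passed the quality limits, out of 4390 barcodes in all. The limits were between 250 and 5000 genes with a UMI, no more than 27000 UMIs, and a ceiling on the mitochondrial share of them.

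Female BALB/c mice of 8 to 10 weeks carried tumors in the mammary fat pad. The tumors were grown from 4T1p, the parental 4T1 triple-negative breast carcinoma line, which resists checkpoint therapy, or from 4T1m, a multiclonal population made from it with the mutagen MNNG, which responds. Both groups of mice received anti-PD1 antibody at 100 µg per dose for up to 2 weeks, so neither group is an untreated control. GR-1+ cells, selected with an antibody that binds Ly6G and Ly6C, were sequenced as 1 single-cell library per tumor line with 10x Genomics 3′ chemistry. How many tumors entered each library is not given in the sources used here. Each condition is thus a single library without replicates, and no test was made. The 95% intervals in brackets or parentheses are exact Poisson intervals for levels, exact binomial intervals for shares and intervals from the exact binomial share of both counts for ratios, and they cover counting error only.

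The library labelled 4T1p contained 1641 barcodes with 9021132 UMIs in all and a median of 2066 per barcode, and 1128 barcodes were kept. The library labelled 4T1m contained 2749 barcodes with 14840190 UMIs and a median of 2763, and 2092 were kept. The study's methods give each of these medians for the opposite condition. Whether the libraries are exchanged in the labels or in the methods cannot be told apart from the medians. By flow cytometry of tumor cell suspensions, the study describes more M1-like and M2-like macrophages in resistant tumors. It describes interferon-inducible genes as high in granulocytic cells enriched in sensitive tumors, and complement genes in monocytic ones. For monocytic cells enriched in resistant tumors it describes Cxcl1 and Nlrp3 as elevated. Macrophage barcodes were 68.8% of kept barcodes labelled 4T1p and 43.7% labelled 4T1m. In that order, Isg15 in members was at 3302 and 1075 per 1e+06 UMIs, and C1qb in macrophage barcodes at 2879 and 1477. The share runs with the labels, all of these genes run against them, and an exchange was not tested. The study's measures and cell subsets differ from the groups counted here. The libraries are therefore named by their labels, and which of them is higher is stated by label alone. The libraries shared 0 cell barcodes. Members held 423396 UMIs in the library labelled 4T1p and 1082692 in that labelled 4T1m, with medians of 2692 and 2310 UMIs per cell.

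Neutrophils enter tumors as short-lived granulocytes and can change their program there, in response to cytokines, microbial products and low oxygen. Signals through NF-kB and interleukin-1 are known to switch on chemokines, interleukin-1 family cytokines and enzymes that reshape metabolism. Among the label genes, Il1f9 encodes interleukin-36 gamma, a cytokine of the interleukin-1 family, and Csf1 encodes the growth factor of macrophages. Irg1, called Acod1 in RefSeq, encodes the mitochondrial enzyme that makes itaconate. Hcar2 encodes a receptor for niacin and the ketone body hydroxybutyrate, Hdc the enzyme that makes histamine, and Mirt1 a long noncoding RNA.

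Members made up 146 of 1128 kept barcodes in the library labelled 4T1p, or 12.9% (11.04 to 15.0). In that labelled 4T1m they made up 445 of 2092, or 21.3% (19.5 to 23.1). The order turned when only neutrophils were counted. Members were 58.6% (52.2 to 64.8) of the 249 neutrophils labelled 4T1p and 43.4% (40.4 to 46.5) of the 1025 labelled 4T1m. Among gated mature neutrophils they were 81.1% (74.6 to 86.6) and 73.8% (70.1 to 77.3), intervals that overlapped. Neutrophils were 22.1% of kept barcodes in the library labelled 4T1p and 49.0% in that labelled 4T1m, so the share of members depended on the denominator. A GR-1 selection and the quality limits can set such shares, and their part was not tested.

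The promoters of the label genes are shown because these genes name the cells, and all but Hdc are counted in the rule. RefSeq start sites were matched here for Mirt1, Il1f9, Irg1, Csf1 and Hdc, 5 of the 6 label genes. Each sequence runs 5′ to 3′ on the strand of the gene, from 250 bases before to 50 bases after the start, in build GRCm38.p6. Capitals mark matches, on either strand, to GGG and CC with 5 bases of any kind between them (NF-kB), TGANTCA (AP-1), TTGCNNNAA (C/EBP) or ACGTG (hypoxia response). The windows are chr19:53464747-53465046 on the minus strand for Mirt1, chr2:24186226-24186525 on the plus strand for Il1f9, chr14:103046762-103047061 on the plus strand for Irg1, chr3:107760420-107760719 on the minus strand for Csf1 and chr2:126618629-126618928 on the minus strand for Hdc.
Mirt1: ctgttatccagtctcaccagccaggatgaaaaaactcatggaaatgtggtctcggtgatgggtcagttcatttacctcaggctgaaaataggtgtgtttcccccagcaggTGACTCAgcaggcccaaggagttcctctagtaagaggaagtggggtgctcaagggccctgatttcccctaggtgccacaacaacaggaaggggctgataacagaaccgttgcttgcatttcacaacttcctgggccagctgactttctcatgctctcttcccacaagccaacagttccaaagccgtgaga
Il1f9: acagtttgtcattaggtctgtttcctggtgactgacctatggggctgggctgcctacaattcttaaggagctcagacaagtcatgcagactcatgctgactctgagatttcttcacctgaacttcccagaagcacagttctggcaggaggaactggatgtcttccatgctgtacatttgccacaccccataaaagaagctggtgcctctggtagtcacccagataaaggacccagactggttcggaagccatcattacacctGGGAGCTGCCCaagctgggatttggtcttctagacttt
Irg1: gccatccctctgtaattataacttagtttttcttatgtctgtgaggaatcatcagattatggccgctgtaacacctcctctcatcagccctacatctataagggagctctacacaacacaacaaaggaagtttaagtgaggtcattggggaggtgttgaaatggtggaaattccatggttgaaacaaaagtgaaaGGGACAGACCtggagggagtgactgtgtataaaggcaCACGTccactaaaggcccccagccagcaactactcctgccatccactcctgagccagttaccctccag
Csf1: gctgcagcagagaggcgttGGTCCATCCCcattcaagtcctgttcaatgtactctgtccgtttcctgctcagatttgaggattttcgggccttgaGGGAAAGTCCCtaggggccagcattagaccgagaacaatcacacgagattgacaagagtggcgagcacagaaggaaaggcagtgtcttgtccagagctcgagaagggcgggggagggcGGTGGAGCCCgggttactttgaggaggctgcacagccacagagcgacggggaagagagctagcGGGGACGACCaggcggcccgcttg
Hdc: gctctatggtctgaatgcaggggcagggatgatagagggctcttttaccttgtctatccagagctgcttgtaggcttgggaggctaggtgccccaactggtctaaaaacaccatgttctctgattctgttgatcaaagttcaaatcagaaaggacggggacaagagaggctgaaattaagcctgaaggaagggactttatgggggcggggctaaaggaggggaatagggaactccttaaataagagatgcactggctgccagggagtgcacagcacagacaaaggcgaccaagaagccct
The Csf1 window held 5 matches to the NF-kB letters, 2 of which overlap at 155 and 154 bases before the start. The Il1f9 window held 2 overlapping matches just after the start, and the Irg1 window held 1, at 55 bases before it, besides 1 match to the hypoxia letters. The Mirt1 window held 1 AP-1 match, 140 bases before the start, and the Hdc window held none of the 4 motifs. These letters are common. Of 32851 RefSeq promoters of this length, 50.8% held the NF-kB letters, 7.81% the AP-1 letters, 9.56% the C/EBP letters and 19.6% the hypoxia letters. A match is a description of the sequence, not a site of binding.

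The levels of the label genes describe how the cells were chosen and support nothing further. Levels are summed UMIs of a group scaled to 1e+06 (CPM), and all ratios are log2 ratios of CPM. The comparison groups were the 192 other gated mature neutrophils (34 in the library labelled 4T1p, 158 in that labelled 4T1m), the 118 of these with at least 2 A genes and A above B, called Tnfrsf23/Ccdc126 neutrophils (21 and 97), and the 431 Retnlg/Mmp8 neutrophils (59 and 372), which passed the neutrophil gate with at least 5 UMIs of Retnlg and Mmp8. In that order their median UMIs per cell were 1506.5 and 1429.5, 2248 and 1723, and 3879 and 3378.5.

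Mirt1 (chromosome 19, 53443230 to 53464796, minus strand, lincRNA) stood at 326 CPM in members labelled 4T1p and 516 in those labelled 4T1m, against 50.5 and 106 in the other mature neutrophils. The first of these other values rests on 3 UMIs in 2 cells. Csf1 (chromosome 3, 107741048 to 107760469, minus strand, protein coding) stood at 633 and 808 CPM, against 50.5 and 154. Both genes were also the label genes with the largest gap to the Retnlg/Mmp8 neutrophils, with log2 ratios of 1.09 and 1.24 for Mirt1 and 1.33 and 1.14 for Csf1. Il1f9 (chromosome 2, 24186476 to 24193568, plus strand, protein coding) was at 890 and 936 CPM in members and 236 and 219 in the other mature neutrophils, while the Retnlg/Mmp8 neutrophils stood between at 501 and 561. Irg1 (chromosome 14, 103046977 to 103056573, plus strand, protein coding) was at 4424 and 7129 CPM in members, 1280 and 2560 in the other mature neutrophils and 2799 and 4077 in the Retnlg/Mmp8 neutrophils. Hcar2 (chromosome 5, 123863570 to 123865499, minus strand, protein coding) hardly separated members from the other mature neutrophils, with 2470 and 1977 CPM against 2543 and 1620, although the rule counts it. The intervals of its log2 ratio are -0.29 to 0.21 around -0.04 and 0.14 to 0.44 around 0.29.

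Hdc (chromosome 2, 126593667 to 126619299, minus strand, protein coding) is in the label of these cells but not in the rule. It stood at 1384 CPM (1274 to 1501) in members labelled 4T1p and 1981 (1898 to 2067) in those labelled 4T1m. The other mature neutrophils had 455 (300 to 662) and 969 (856 to 1093), giving log2 ratios of 1.61 and 1.03, with no overlap of intervals in either library. Against the Retnlg/Mmp8 neutrophils, at 1040 and 1320 CPM, the ratios were 0.41 and 0.59. Macrophage barcodes had 11.5 and 17.6 CPM. An Hdc UMI was found in 72.6% and 80.9% of members, and in 55.4% and 67.7% once each cell was thinned to 1000 UMIs. The thinned shares were 57.1% and 63.9% in Retnlg/Mmp8 neutrophils. Macrophage barcodes, which should lack the gene, had such a UMI in 3.74% and 7.10% of cases without thinning (median UMIs 1807.5 and 5007). The source of these UMIs was not tested.

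**Figure D1:**
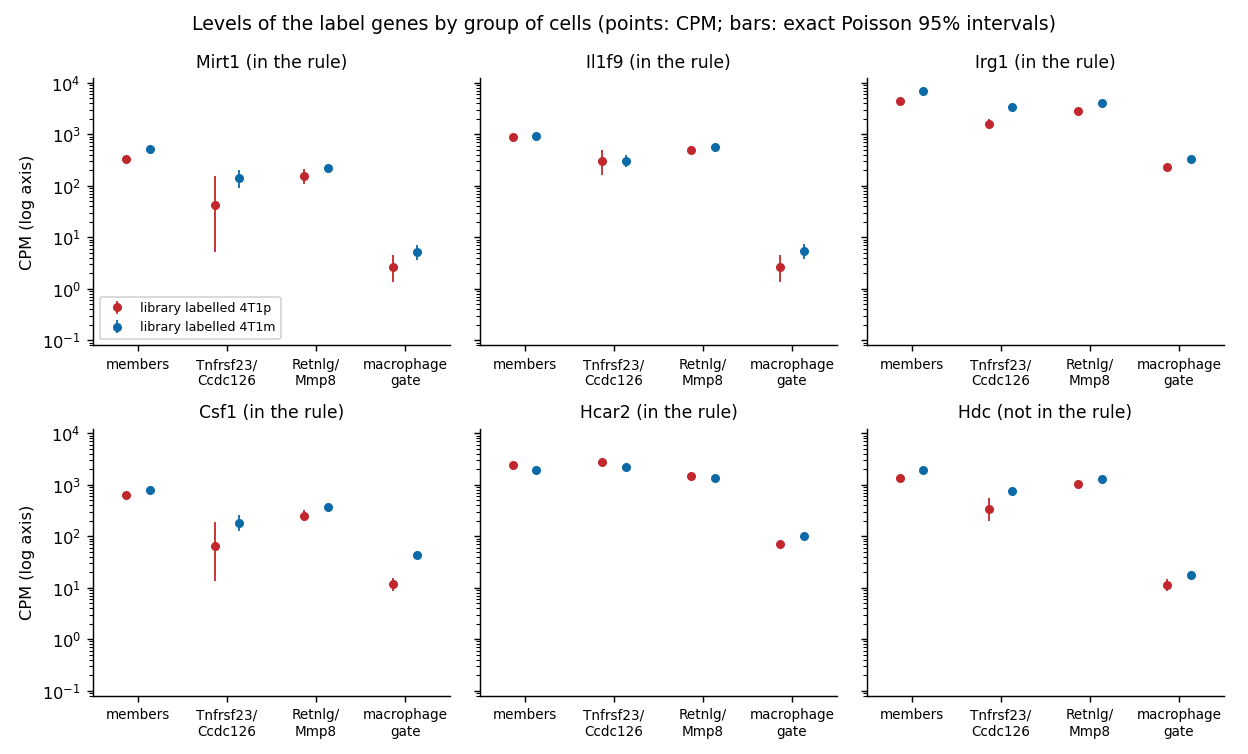
Levels of the 6 label genes (CPM, log axis) in 4 groups of cells, 1 point per library with its exact Poisson 95% interval. The groups are members, Tnfrsf23/Ccdc126 neutrophils, Retnlg/Mmp8 neutrophils and macrophage barcodes. Hdc lies at 1384 and 1981 CPM in members labelled 4T1p and 4T1m, and at 342 and 753 in Tnfrsf23/Ccdc126 neutrophils. Retnlg/Mmp8 neutrophils have 1040 and 1320 CPM of Hdc and macrophage barcodes 11.5 and 17.6.

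Detection of the rule genes was far from uniform among members. Hcar2 was found in 91.2% and Irg1 in 90.7% of the 591 cells, Il1f9 in 62.4%, Csf1 in 60.9% and Mirt1 in 52.8%. Irg1 and Hcar2 were found together in 82.6% of members, and Mirt1 together with Csf1 in 30.5%. A B score of 2 was reached by 86 cells, 3 by 186, 4 by 209 and 5 by 110. Most members therefore carried Irg1 and Hcar2 with 1 or more of the other genes, and fewer than 1 in 5 carried the full set. The A genes were frequent too. An A score of at least 2 was found in 299 members (50.6%), an A score of 0 in 93, and 83 members had equal scores. Ero1l, an oxidase of the endoplasmic reticulum, was found in 56.5% of members and Tnfrsf23, a decoy receptor of the TNF family, in 44.8%.

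**Figure D2:**
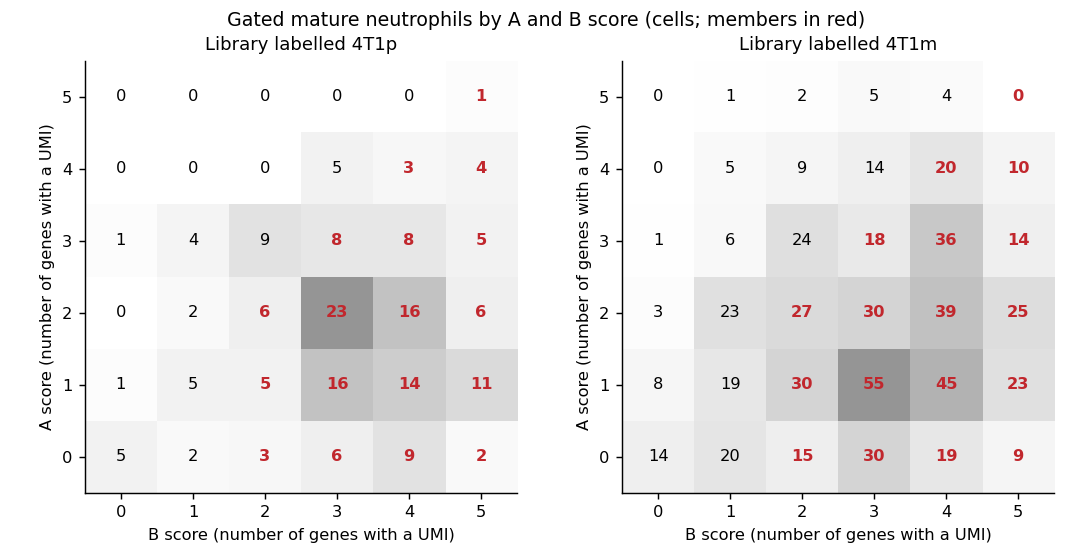
Number of gated mature neutrophils at each pair of A score (vertical axis, genes with a UMI) and B score (horizontal axis, genes with a UMI), 1 panel per library, with members in red. The 591 members lie in the region with B of at least 2 and not below A, and 83 of them had equal scores. No cell labelled 4T1m had both scores at 5.

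The cells just inside and just outside the limits are given as a description. With a B score of 2 and an A score of 2, the last step inside, 33 cells had 86.4 CPM of Mirt1, 51.8 of Il1f9, 2903 of Irg1, 432 of Csf1, 2765 of Hcar2 and 1296 of Hdc. With a B score of 2 and an A score of 3, the first step outside, 33 cells had 74.5, 149, 1996, 134, 1922 and 298 CPM in the same order. Mirt1 thus lay near on both sides, Csf1 and Hdc were lower outside and Il1f9 was higher outside. At the other limit, the 53 cells with a B score of 2 and an A score below it had 111 CPM of Mirt1, 420 of Il1f9, 2979 of Irg1, 309 of Csf1, 1422 of Hcar2 and 1372 of Hdc. The 46 cells with a B score of 1 and an A score not above it had 64.7, 48.5, 1036, 129, 938 and 1699 CPM. All 5 rule genes were lower outside this limit, and Hdc, which the rule does not count, was higher.

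The rule asks for detected genes, and median UMIs were higher in members than in the other mature neutrophils of both libraries. To read levels in UMIs that the rule did not count, each barcode's UMIs were divided at random into 2 equal portions, the rule was applied to one and levels were read in the other, an alternative chosen after the data were seen. It gave 137 and 471 members, 503 of them shared with the rule at full depth. In the unused portion the log2 ratios of members over the other mature neutrophils were 1.62 and 1.71 for Il1f9, 1.42 and 1.66 for Irg1, 1.75 and 1.19 for Csf1 and 0.54 and 0.55 for Hcar2. Hdc had 1.84 (1.21 to 2.53) and 0.80 (0.58 to 1.02). Mirt1 had 0.84 in the library labelled 4T1p, with an interval from -0.25 to 2.12 that includes 0, and 1.39 in that labelled 4T1m. The cells were still chosen for these genes, Hdc apart, so that the values of the 5 rule genes remain a description.

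The B genes were not particular to members. A B score of at least 2 was reached by 86.4% and 88.2% of Retnlg/Mmp8 neutrophils, and by 75% and 69.4% at 1000 UMIs per cell. At the same thinned depth it was reached by 81.1% and 79.4% of all gated mature neutrophils and by 1.11% and 3.75% of macrophage barcodes.

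The neutrophil identity of members was checked on marker lists. All 14 mature neutrophil markers were detected, with summed levels of 84850 and 84416 CPM, of which 7031 and 6852 came from the 9 markers that the rule does not use. Macrophage barcodes had 713 and 1129 CPM of these 9. Over all 14 they had 1266 and 1987 CPM, a gap that the neutrophil gate itself sets in part. Of 11 immature neutrophil markers 7 and 8 were detected in members, at 701 and 871 CPM, of which Lcn2 gave 640 and 782. The other mature neutrophils had 556 and 534 CPM of this list and the Retnlg/Mmp8 neutrophils 1996 and 2342. The primary granule genes Elane, Ctsg and Mpo were at 0 in all of these groups. Ly6g, the gene of the Ly6G antigen, had a UMI in only 4.79% and 2.25% of members, against 20.3% and 22.0% of Retnlg/Mmp8 neutrophils (2.16% and 1.20% against 5.36% and 10.7% at 1000 UMIs per cell). Since Hdc is best known from basophils and mast cells, their markers were read as well. Of 10 such markers members had 0 in the library labelled 4T1p and 4 in that labelled 4T1m, summing to 18.5 CPM with Kit the most abundant at 14.8. The 4 were Kit, Cpa3, Fcer1a and Cd200r3, while Mcpt8, Prss34, Ms4a2, Gata2, Gata1 and Il4 were at 0 in both libraries. Eosinophil markers summed to 26.0 and 22.2 CPM, mostly Siglecf, with Epx and Prg2 at 0. Dendritic cell markers were at 0 in both libraries.

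All 16 macrophage and monocyte markers were found in members, led by the protease gene Ctsb. The 12 that the rule does not use summed to 2428 and 1499 CPM, against 17890 and 10421 in macrophage barcodes. Over all 16, of which the gate used 4, the sums were 4407 and 2726 against 46058 and 30490. Tumor and stromal markers summed to 118 and 36.0 CPM and red cell and platelet markers to 28.3 and 23.1. A Ptprc UMI, the gene of the leukocyte antigen CD45, was found in 69.9% and 89.0% of members. Fth1, the ferritin heavy chain, Cxcl2, a ligand of the neutrophil receptor Cxcr2, and S100a9, a subunit of calprotectin, gave the most UMIs in members. The 10 genes with the most UMIs carried 27.3% and 28.5% of all UMIs in members of the libraries labelled 4T1p and 4T1m.

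The first comparison asks how members differ from the other gated mature neutrophils of the same tumor. Of 1150 genes with at least 50 UMIs over both groups in each library, 25 were higher in members by a log2 ratio of at least 1 in both libraries (2.17%) and 10 were lower (0.87%). These are counts past a fold, not tests. Where members needed a B score above A, the counts were 19 and 34, which turned the balance to 35.8% on the upper side. The median ratio of all these genes was -0.03, and 46.9% of them lay above 0 on the mean of both libraries, against which the counts of each list below can be read. Slc7a11, Nr4a3, Fpr1, Ncf1 and Mefv were among the genes higher in members.

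Slc7a11, the cystine transporter that feeds glutathione synthesis, was at 898 CPM in members labelled 4T1p and 1134 in those labelled 4T1m, against 67.4 and 457 in the other mature neutrophils. The log2 ratios were 3.74 (2.37 to 5.62) and 1.31 (1.04 to 1.59). Nr4a3, an orphan nuclear receptor of the immediate-early kind, had 52 UMIs in members and 0 in the other cells of the library labelled 4T1p. With the 0 set to a floor of 3 counts the ratio there was 1.28, and its interval starts at 0.93 with no upper end. In the other library the ratio of Nr4a3 was 2.24 (1.28 to 3.39). Fpr1, the receptor for bacterial formyl peptides, likewise had 83 UMIs against 0 labelled 4T1p. Its ratio at the same floor was 1.96, with an interval that starts at 1.63, and 1.11 (0.45 to 1.83) labelled 4T1m. Ncf1, a subunit of the phagocyte NADPH oxidase, had ratios of 2.17 and 1.02, and Mefv, which encodes the inflammasome protein pyrin, 1.97 and 1.04. Tgm2, a transglutaminase, had 1.77 and 1.19, and Lpcat2, an enzyme of platelet-activating factor synthesis, 1.41 and 1.28, where the first interval runs from -0.21 to 3.73. Mrgpra2b, a Mas-related receptor with a close paralog that can share reads, had 2.95 and 1.16, and the lincRNA Gm20186 had 1.80 and 1.16. Each of the 4T1p ratios in this group rests on 0 to 6 UMIs in the other cells. The UMI minimum is set over both groups together, and members there held 423396 UMIs against 59379 in the other cells. A gene with so few UMIs in the other cells could pass it only through members, so its direction supports nothing by itself.

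Among the genes of the interleukin-1 family and the inflammasome, 8 of 13 had enough UMIs, and all 8 lay above 0 on the mean of both libraries, with a median of 0.64. Nlrp3, the sensor of the best studied inflammasome, was past the fold. Its levels were 1096 and 2451 CPM in members and 472 and 980 in the other cells, with ratios of 1.22 and 1.32. Il1b, the main product of that pathway, was at 11757 and 12947 CPM against 5810 and 6971, with ratios of 1.02 and 0.89. Il1a had ratios of 0.73 and 0.87. The decoy receptor gene Il1r2 differed between libraries, with -0.20 and 1.15.

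Targets and feedback genes of NF-kB showed the same side. Of 12 measured, 11 lay above 0, with a median of 0.83. The rule counts Il1f9, of the interleukin-1 family, and genes that run with the B genes are part of that choice. The upper side of both lists is thus not independent of the choice of cells. Tnfaip2, induced by TNF, was at 945 and 842 CPM against 320 and 355, with ratios of 1.56 (0.90 to 2.31) and 1.25 (0.94 to 1.56). Birc3, an inhibitor of apoptosis in TNF receptor complexes, had 1.84 and 1.13. Nfkbia, the inhibitor that NF-kB induces against itself, had 1.01 and 0.65, at 11245 and 8361 CPM in members, and the subunit gene Rel had 2.67 and 0.79. Ier3 lay below 0 in the library labelled 4T1p, with -0.25, and above in the other, but the first value was -0.07 (-0.26 to 0.13) without 1 barcode of the other cells.

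Of the chemokines, 6 of 7 lay above 0, with a median of 0.34 and none past the fold in both libraries. Cxcl2 was at 51512 and 61419 CPM in members and 34945 and 33505 in the other cells, ratios of 0.56 and 0.87. Ccl3 had -0.15 and 0.79, but 344 of 661 UMIs in the other cells labelled 4T1p came from 1 barcode, without which the first ratio was 0.77. Chemokine and homing receptors lay above 0 in 10 of 10 cases, with a median of 0.83. Besides Fpr1, the formyl peptide receptor Fpr2 had 1.13 and 0.97 and Ccrl2, an atypical receptor for chemerin, 1.45 and 0.94. C5ar1, the receptor of complement fragment C5a, had 1.33 and 0.50. Cell survival genes lay above 0 in 5 of 7 cases (median 0.47), with Bcl2a1b at 1.10 and 1.31, a gene whose paralogs can share its reads. Growth factors and their receptors (4 of 7, median 0.18) and genes often named for suppressive neutrophils (9 of 14, median 0.15) had medians nearer to 0. In the latter list Trem1, an activating receptor, had 1.47 and 0.99, while Cd274, the gene of PD-L1, had -0.77 and -0.08.

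Genes of itaconate and the NRF2 response did not share a direction (4 of 7 above 0, median 0.09). Slc7a11 was high, but Hmox1, heme oxygenase, had -1.04 and -0.60. In the histamine and eicosanoid pathway Hdc was the gene past the fold, 3 of 4 lay above 0 and the median was 0.28. Immediate-early and AP-1 factors lay above 0 in 11 of 16 cases (median 0.20), with Jun the exception past the fold. Jun stood at 1257 and 954 CPM in members against 2812 and 2297, ratios of -1.16 (-1.42 to -0.90) and -1.27 (-1.41 to -1.12). Myeloid transcription factors (4 of 6, median 0.15) and Fc, lectin and Toll-like receptors (5 of 10, median 0.03) had no gene past the fold.

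Glycolysis and hypoxia genes were mostly lower in members. Of 21 measured, 2 lay above 0 and the median was -0.73. The rule holds members' A score at or below B, and Ero1l, itself a hypoxia-induced gene, counts in A, so this direction is not independent of the choice of cells. Ndrg1 was past the fold, at 194 and 139 CPM against 522 and 307, with ratios of -1.43 and -1.15. Hilpda, a lipid droplet protein induced by hypoxia, was at 1582 and 1536 CPM against 3857 and 2677, with -1.29 and -0.80. Gapdh had -1.25 and -0.80 and Tpi1 -1.35 and -0.91, both enzymes of glycolysis. Other lower genes were Fabp5, a fatty acid binding protein, with -2.00 and -1.13, Impa2, an inositol monophosphatase, with -2.34 and -1.07, Cycs, cytochrome c, with -1.17 and -1.24, and Pmaip1, the BH3-only protein Noxa, with -1.13 and -1.05. Rnf7, a RING subunit of cullin ubiquitin ligases, and the noncoding Zfos1 had -1.36 and -1.10, and -1.10 and -1.08, but with rule and levels thinned to 1000 UMIs per cell their mean ratios turned to 0.67 and 0.48.

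Hspa1b, an inducible Hsp70 gene, headed the lower genes with -2.81 and -1.15, but 69 of its 72 UMIs in the other cells labelled 4T1p came from 1 barcode. Without that barcode and 2 others that carried red cell or dendritic cell transcripts, the mean ratio of Hspa1b was 0.24. Of 8 heat shock chaperones, 0 lay above 0 (median -0.41) with these barcodes included. Interferon-stimulated genes lay above 0 on the mean of both libraries in 10 of 10 cases with a median of 0.41. Gbp2, a guanylate-binding protein, had 1.63 and 1.36. Rsad2 had opposite signs, with 0.43 and -0.42, where 77 of 146 UMIs in the other cells labelled 4T1m came from 1 barcode. Over all measured genes of this comparison, 10 were higher past the fold and 1 was lower with rule and levels thinned to 1000 UMIs per cell.

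**Figure D3:**
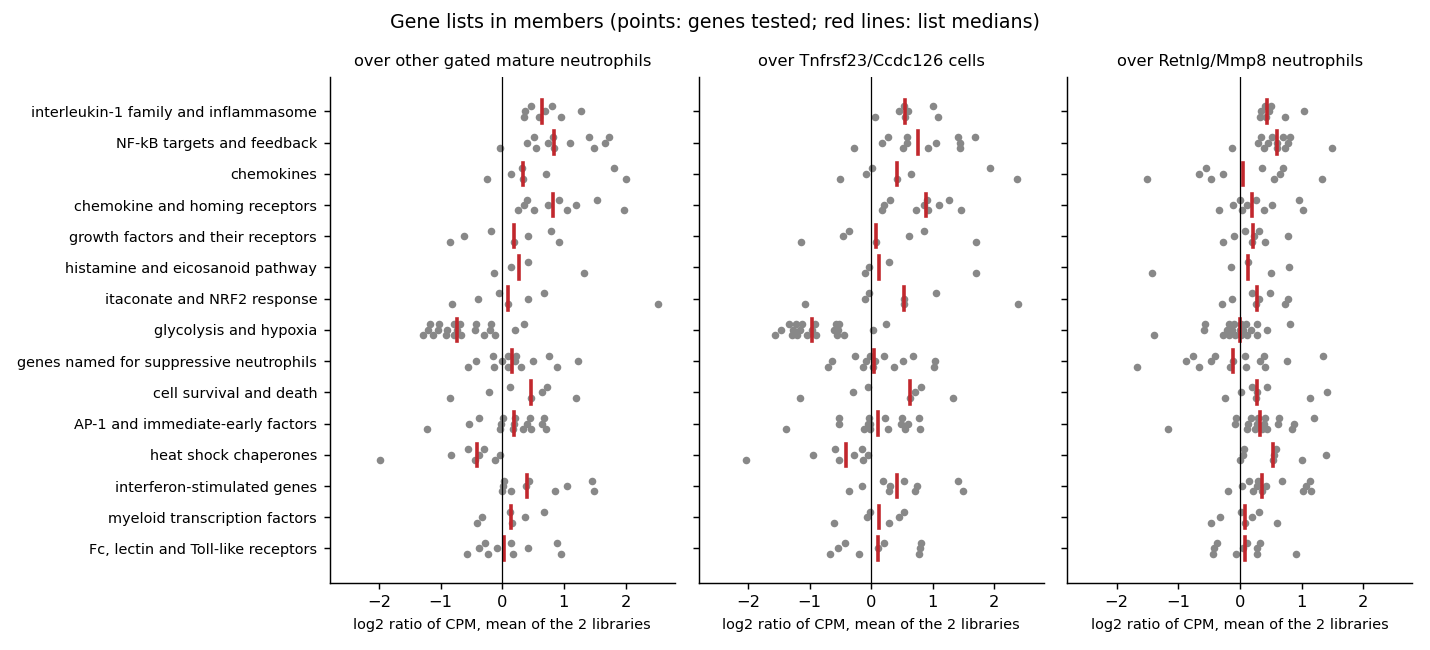
Log2 ratios of CPM (mean of both libraries, horizontal axis) for the measured genes of each list (1 point per gene, red line at the list median), with 1 panel per comparison group. Interleukin-1, NF-kB and receptor lists lie above 0 against the other mature neutrophils (medians 0.64, 0.83 and 0.83) and glycolysis and hypoxia below it (median -0.73), while the last list lies at 0.00 against the Retnlg/Mmp8 neutrophils. Genes that run with those of the rule are part of the choice of cells.

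Levels of genes outside the rule were also read along the B score in all 783 gated mature neutrophils, in groups with a score of 0 or 1, 2, 3, and 4 or 5. In the library labelled 4T1m, Cxcl2 was at 15091, 40960, 56025 and 67818 CPM in that order. In that labelled 4T1p it was at 21348, 20001, 53034 and 54823 CPM, with no rise from the first group to the second and little from the third to the last. Nlrp3 was at 535, 1109, 2071 and 2796 CPM labelled 4T1m and 156, 216, 1076 and 1197 labelled 4T1p, and Slc7a11 at 261, 619, 821 and 1328, and 78.1, 456, 802 and 915. Both were higher at each step in both libraries, although the first values labelled 4T1p rest on 4 and 2 UMIs in 20 cells and several neighbours' intervals overlap. Hdc did not follow each step, with 1233, 1039, 1552 and 2186 CPM labelled 4T1m and 585, 600, 1481 and 1319 labelled 4T1p. Jun ran the other way after the second group, with 1930, 2886, 1085 and 708 CPM labelled 4T1m and 2225, 2593, 1409 and 1213 labelled 4T1p. Median UMIs per cell over both libraries ran along with the score (1130, 1613.5, 2101 and 2778), and the part of depth in these levels was not tested.

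The second comparison sets members against the Tnfrsf23/Ccdc126 neutrophils, which are part of the other mature neutrophils and had the opposite balance of scores. Of 1107 genes 35 were higher in members past the fold in both libraries (3.16%) and 32 were lower (2.89%), and 53.2% of all lay above 0. The balance of the 2 counts turned under several alternatives, to 28 and 35 after centring, 29 and 34 without 3 barcodes of the other mature neutrophils, 25 and 26 among cells with a Ptprc UMI and 9 and 12 with at least 200 UMIs. Among the higher genes, Saa3, an acute-phase serum amyloid, was at 994 and 1215 CPM in members against 42.8 and 515, ratios of 4.54 (2.68 to 7.59) and 1.24 (0.94 to 1.56). It had UMIs in 15 members labelled 4T1p, with 163 of 421 UMIs from 1 barcode, and in 84 labelled 4T1m. Ltb, lymphotoxin beta, had 2.93 and 2.56, Dusp2, a phosphatase of MAP kinases, 2.91 and 3.75, Fgl2, a fibrinogen-like protein, 3.61 and 1.53, and Anxa1, annexin A1, 2.97 and 1.10. Sirpb1c had 2.55 and 1.92, the factor Klf13 2.49 and 1.41, and the adhesion molecule Amica1 1.77 and 1.73. All 8 of these rest on 1 or 2 UMIs in the 21 cells labelled 4T1p, and the intervals of Klf13 and Amica1 there include 0. Dusp2 had 1 UMI in the 97 cells labelled 4T1m as well. The UMI minimum is set over both groups together, and members held far more UMIs, so that such genes passed it through members alone and had to differ. Of the 35 higher genes 14 had fewer than 3 UMIs in the Tnfrsf23/Ccdc126 cells labelled 4T1p, against 3 of the 25 in the first comparison, and the counts of higher genes support nothing by themselves.

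The lower genes of this comparison included glycolysis and hypoxia genes, with the same tie to the rule through Ero1l. Of 21 glycolysis and hypoxia genes 8 were past the fold (Gpi1, Tpi1, Gapdh, Eno1, Ldha, Ndrg1, Hilpda and P4ha1), 2 lay above 0 and the median was -0.96, against 0.06 for all genes. P4ha1, a collagen prolyl hydroxylase, was at 262 and 244 CPM against 813 and 601, with ratios of -1.63 (-2.18 to -1.06) and -1.30 (-1.63 to -0.97). Ldha, lactate dehydrogenase, had -1.14 and -1.27, at 1467 and 1174 CPM in members. Vegfa, the vascular growth factor, was past the fold with -1.06 and -1.22. Higd1a, a mitochondrial protein induced by hypoxia, had -1.61 and -1.22, Ndufv3, a subunit of respiratory complex I, -2.02 and -1.16, and Cnot7, a deadenylase subunit, -2.09 and -1.16. Impa2 and Fabp5 were lower here as well, with -2.46 and -1.46, and -2.25 and -1.54. Rnf7 had -1.35 and -1.53, but its mean ratio turned to 0.21 with thinning.

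The interleukin-1, NF-kB and receptor lists had medians above that of all genes against the Tnfrsf23/Ccdc126 neutrophils, with the same tie to the rule through the B genes. Interleukin-1 and inflammasome genes lay above 0 in 7 of 7 cases (median 0.55), with Il1b at 0.97 and 1.20. NF-kB genes lay above 0 in 11 of 12 (median 0.76), with Tnfaip2 at 1.46 and 1.35 and Rel at 2.33 and 1.03. Receptors lay above 0 in 10 of 10 (median 0.88). Chemokines lay above 0 in 5 of 7 cases (median 0.42), with none past the fold in both libraries. Ccl4 had 0.18 and 1.11 and Cxcl2 0.31 and 0.52, while Cxcl3 had -0.70 and 0.52 and Ccl3 -0.35 and 0.37. Without the barcode with the most UMIs of the gene among the Tnfrsf23/Ccdc126 cells labelled 4T1p, the first ratios were -0.15 and 0.72.

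The third comparison sets members against the Retnlg/Mmp8 neutrophils. The gate used Retnlg and Mmp8 themselves, and genes that run with them are part of that choice. Of 1521 genes 16 were higher in members past the fold in both libraries (1.05%) and 26 were lower (1.71%), while 63.3% of all lay above 0. Ccl3, a chemokine for monocytes and T cells, was at 10000.1 CPM (9701 to 10306) and 10149.7 (9961 to 10341) in members against 3805 (3572 to 4049) and 4167 (4063 to 4273), ratios of 1.39 and 1.28. It was found in 490 members. Icam1, the adhesion molecule that binds leukocyte integrins and an NF-kB target, was at 182 and 123 CPM against 76.5 and 36.7, ratios of 1.25 and 1.74. Clec4n, the lectin Dectin-2, had 1.49 and 1.21, Nr4a3 1.42 and 1.15 and the helicase Dhx40 1.60 and 1.01. Gm20186 had 2.44 and 2.09. Bcl2a1a had 1.09 and 1.74 and Gm5416 1.94 and 1.24, both in multigene families whose reads can be shared.

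S100a6, Ifitm6, Wfdc21 and Vim were among the lower genes. S100a6, calcyclin, was at 1292 and 1774 CPM in members against 5640 and 7714, ratios of -2.13 (-2.27 to -1.98) and -2.12 (-2.19 to -2.05). Ifitm6 had -2.64 and -3.39, Wfdc21, of the whey acidic protein family, -1.84 and -1.91, and Vim, vimentin, -2.14 and -1.20. Ahnak, a giant scaffold protein, had 6 UMIs in 146 members labelled 4T1p, with ratios of -4.38 there and -2.13 in the library labelled 4T1m. Atxn10 had -2.13 and -2.24 and R3hdm4 -2.45 and -1.73. Ccl5 had -1.34 and -2.76 but rested on 39 UMIs in 10 members, and its mean ratio was 0.066 without barcodes marked as doublets. Lcn2, lipocalin of secondary granules, was past the fold with -1.57 and -1.53, and Alox5ap, needed for leukotriene synthesis, had -1.39 and -1.46.

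Glycolysis and hypoxia genes had a median of 0.00 here (11 of 21 above 0), against 0.14 and 63.3% above 0 for all genes. NF-kB genes lay above 0 in 12 of 13 cases (median 0.60) and interleukin-1 genes in 8 of 8 (median 0.45), with Nlrp3 at 0.97 and 1.10. The tie to the rule through the B genes holds here too. Chemokines had a median of 0.05 (5 of 10). Heat shock chaperones had 0.54 (7 of 8) and interferon-stimulated genes 0.37 (12 of 13). Immediate-early factors had 0.33 (15 of 18), with Nr4a1 past the fold on the upper side and Klf4 on the lower. With rule and levels thinned to 1000 UMIs per cell, 19 genes were higher and 12 lower, which turned the balance to 61.3% on the upper side. After centring each library on its median gene, 8 genes were higher and 36 lower, so that 18.2% of the calls were on the upper side in place of 38.1%. Without mitochondrial, ribosomal and calprotectin UMIs in the totals the counts were 9 and 36.

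Within members, the last comparison sets the library labelled 4T1m over that labelled 4T1p. Of 1659 genes with at least 100 UMIs, 94 were higher in the library labelled 4T1m by a log2 ratio of at least 1 with an interval above 0 (5.67%), and 61 were lower (3.68%), while 55.0% of all lay above 0. With at least 20 UMIs the counts were 255 and 290, which turned the balance. The tumor line, the library and the sorting cannot be told apart in this design. The genes of the interferon response, a defence program that type I and type II interferons induce, stood lower in the library labelled 4T1m as a group. Of 10 measured genes 0 lay above 0, 7 were past the fold, among them Ifit1, Isg15, Rsad2, Oasl2, Irf7 and Ifi47, and the median was -1.52, against 0.07 for all genes.

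Isg15, a ubiquitin-like modifier, was at 3302 CPM (3131 to 3480) in members labelled 4T1p and 1075 (1014 to 1139) in those labelled 4T1m, a ratio of -1.62 (-1.73 to -1.51). Rsad2, the antiviral enzyme viperin, was at 1316 and 398 CPM, with -1.72 (-1.91 to -1.54). Ifit1, which binds foreign RNA, was at 326 and 71.1, with -2.20 (-2.62 to -1.78), and had UMIs in 46 and 41 cells. Irf7, the factor that amplifies interferon production, was at 281 and 73.0, with -1.95 (-2.37 to -1.52). The guanylate-binding protein Gbp2 was at 418 and 262, with -0.67 (-0.95 to -0.39), short of the fold. No single barcode carried more than 10.4% of the UMIs of Ifit1 or Irf7 in a library.

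At least 5 of 16 interferon genes had a UMI in 67 of 146 members labelled 4T1p, or 45.9% (37.6 to 54.3), and in 70 of 445 labelled 4T1m, or 15.7% (12.47 to 19.5). At 1000 UMIs per cell the shares were 25.2% (18.2 to 33.2) and 4.82% (2.97 to 7.35), with 7 and 30 shallower cells left out. The intervals of the libraries did not overlap at either depth. The Retnlg/Mmp8 neutrophils had 49.2% and 12.9% without thinning, so the gap was not particular to members. Isg15 was at 2306 and 597 CPM in Retnlg/Mmp8 neutrophils and 818 and 484 in macrophage barcodes.

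**Figure D4:**
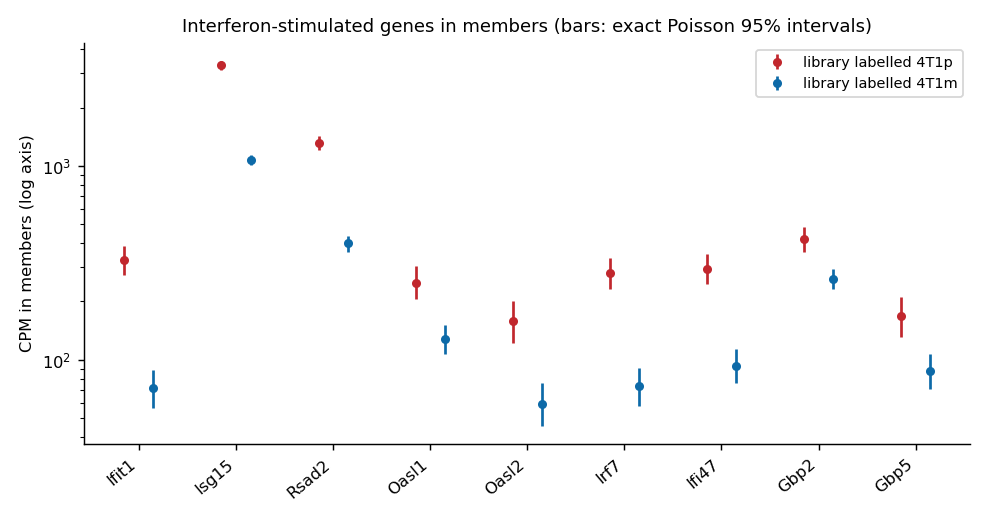
Levels of 9 of the 10 measured interferon-stimulated genes in members (CPM, log axis), 1 point per library with its exact Poisson 95% interval. Isg15 stands at 3302 CPM in the library labelled 4T1p and 1075 in that labelled 4T1m, Rsad2 at 1316 and 398 and Ifit1 at 326 and 71.1.

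Psmb8 and 4 genes of class II presentation were also past the fold on the lower side in the library labelled 4T1m. Psmb8, a subunit of the immunoproteasome, was at 331 CPM in members labelled 4T1p and 93.3 in those labelled 4T1m, a ratio of -1.83 (-2.21 to -1.45). The class II genes H2-Aa, H2-Ab1 and H2-Eb1 and the invariant chain Cd74 had -1.91, -1.83, -1.75 and -1.78. Macrophage transcripts ran the same way. Of 6 measured macrophage and monocyte markers that the rule does not use, 0 lay above 0, with a median of -1.26, and C1qb, C1qc, H2-Ab1 and H2-Eb1 were past the fold. In macrophage barcodes H2-Aa was at 6084 CPM labelled 4T1p and 2642 labelled 4T1m, and such barcodes were 68.8% and 43.7% of the kept barcodes. The part of transcripts from macrophages in the class II levels of members was not tested. Of 362 Cd74 UMIs in members labelled 4T1p, 200 came from 1 barcode of 17593 UMIs that also held 149 Apoe UMIs. All 418 UMIs of Fabp4 but 2 came from another barcode, of 12760 UMIs, which held 15 UMIs of the endothelial gene Cdh5. Without these 2 barcodes the median of the 6 macrophage markers was -0.48, none of them was past the fold, and C1qb and C1qc had -0.46 and -0.40 in place of -1.08 and -1.43. Fabp4 then had 0.35, H2-Aa -1.15, H2-Ab1 -0.79, H2-Eb1 -0.85, Cd74 -0.73 and Gatm, an enzyme of creatine synthesis, -1.98 in place of -3.18. The counts were then 92 higher and 40 lower of 1624 genes, of which 80 and 38 were also in the lists with the 2 barcodes. Gm13822, an antisense transcript next to Oasl1, had -2.07.

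Areg, Spag9, Abca1 and Ccl2 were among the genes higher in the library labelled 4T1m. Areg, the epidermal growth factor receptor ligand amphiregulin, had 165 UMIs in 22 members labelled 4T1m and 3 UMIs in 2 members labelled 4T1p, a ratio of 4.43 (2.85 to 6.72). Spag9, a scaffold of JNK signaling found in 322 and 60 members, was at 816 CPM in the library labelled 4T1m and 257 in that labelled 4T1p, with 1.66 (1.38 to 1.96). Abca1, the cholesterol exporter, had 1.65 (1.12 to 2.21) and UMIs in 151 and 24 members. Ccl2, a chemokine for monocytes, had 1.89 (1.31 to 2.54) and UMIs in 41 and 9 members, with 66 of 247 UMIs from 1 barcode. Cdk5r1, Cdc42bpg, Ctage5, Jmy and 4932438A13Rik had 2.01, 2.04, 1.73, 1.67 and 1.81, and the lincRNA Gm26870 had 2.36. All 10 of these genes were also higher in macrophage barcodes labelled 4T1m, with 148 against 36.7 CPM for Areg, 303 against 120 for Spag9, 406 against 146 for Abca1 and 963 against 787 for Ccl2, and the part of transcripts from such cells was not tested.

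Among the lists, Nlrp3 was higher in the library labelled 4T1m, with 2451 against 1096 CPM and a ratio of 1.16 (1.02 to 1.31), as were Rel (1.04) and Nfkb1 (1.26). Cxcl1 had 1.36 and Cxcl10, itself induced by interferon, -1.09. Sqstm1 had 1.12 and Hif1a 1.13. Of 8 heat shock chaperones 3 were higher (Hspa1b, Hsp90aa1 and Dnaja1, with 1.24, 1.03 and 1.03) and 7 lay above 0, against 5.67% higher and 55.0% above 0 among all genes. Gapdh was lower with -1.496, and 1 of 21 glycolysis and hypoxia genes lay above 0 (median -0.43). Inhba, activin A, had -1.59, but 74 of its 134 UMIs in members labelled 4T1p came from 1 barcode. The label genes differed less, with 0.66 (0.39 to 0.94) for Mirt1, 0.07 (-0.10 to 0.25) for Il1f9, 0.69 (0.62 to 0.76) for Irg1, 0.35 (0.15 to 0.56) for Csf1, -0.32 (-0.43 to -0.21) for Hcar2 and 0.52 (0.38 to 0.65) for Hdc, all short of the fold.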

How the data were processed

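Single-cell RNA-seq was available as 1 library of GR-1+ cells for each tumor line, both under anti-PD1. The authors ran Cell Ranger on GRCm38 and deposited its unnormalised UMI counts, restricted to barcodes taken for cells but without further quality filters. The matrix header names software version 3.1.0, an earlier version than the paper gives for Cell Ranger. Of 28692 listed genes 28339 were found in GENCODE vM21, which gave gene places, and 58 symbols occurred more than once, where the first identifier was kept. Counts were summed over the cells of a group in each library and scaled to 1e+06 (CPM). Genes entered a comparison of groups with at least 50 UMIs over both groups in each library, and the comparison of libraries with at least 100 UMIs in all. A count of 0 was set to a floor of 3 counts. Calls were log2 ratios of CPM past 1 in both libraries, or past 1 with an interval excluding 0 between libraries. Shares were also computed after thinning to 1000 UMIs per cell, with shallower cells left out. Doublets were marked with Scrublet in an alternative only (13 and 44 barcodes, 3 and 8 of them members).

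The cells, gene lists, markers and promoter motifs were chosen with earlier results of these data known. The named genes are those of the rule, 2 to 5 examples of each list with the most extreme values or most UMIs, and the genes with the highest and lowest mean ratio past the fold (up to 12 each way against the other mature neutrophils, 8 against each of the other groups, 10 between libraries), without mitochondrial, ribosomal protein and rRNA genes and genes of the rule. Genes named besides these were chosen after their values were seen. Of the listed genes 2, Cebpd and Clec7a, were not analysed here. Values of a few other genes are not reported here. Promoters are from RefSeq (GRCm38.p6). Alternatives changed the quality limits, rule, scaling, UMI minimum and libraries. The computation was tested on simulated data. Software was Python 3.11.15 with numpy 2.4.6, pandas 2.3.3, scipy 1.17.1, scanpy 1.11.5 and matplotlib 3.10.9.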

Additional observations from a re-analysis of the deposited data

Results flagged for a closer look

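For 10 genes of the fixed lists the log2 ratio of members over a comparison group had opposite signs in the libraries labelled 4T1p and 4T1m, with each interval on its own side of 0. The difference between libraries was not tested. Over the other mature neutrophils the values, in that order, were -0.25 and 0.17 for Ier3, -0.42 and 0.70 for Cxcl3, -0.15 and 0.79 for Ccl3, 0.59 and -0.30 for Ptgs2, 0.86 and -0.18 for Jund, and 0.43 and -0.42 for Rsad2. Over the Tnfrsf23/Ccdc126 neutrophils, which are part of the same cells, Cxcl3 had -0.70 and 0.52 and Ccl3 -0.35 and 0.37.

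Over the Retnlg/Mmp8 neutrophils Cxcl1 had -1.81 and 0.87 and Ccl2 -3.76 and 0.74. Hmox1 had -0.53 and 0.29 and Klf2 -0.33 and 0.18. Single barcodes of the comparison groups carried many of these UMIs, among them 370 of 497 for Cxcl1 and 192 of 217 for Ccl2 in the 59 Retnlg/Mmp8 neutrophils labelled 4T1p, 344 of 661 for Ccl3 in the other mature neutrophils labelled 4T1p and 77 of 146 for Rsad2 in those labelled 4T1m. Without the barcode of the comparison group with the most UMIs of the gene, in each library, none of the 10 genes kept opposite signs with both intervals on their own side of 0. Rsad2 then had 0.70 and 0.64, Ccl3 0.77 and 0.90, and Ccl2 -0.71 (-1.56 to 0.14) and 1.18. All barcodes of members were kept, and each of these ratios rose. The loss of negative values was thus set in part by this choice and does not show whether the libraries differ.

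Outside the cells analysed, 36 barcodes of the library labelled 4T1p and 84 of that labelled 4T1m met every gene gate of the rule but not the quality limits. Of these, 35 and 80 were over the mitochondrial limit, with median mitochondrial shares of 24.0% and 20.9% over all of them. Their median UMIs per barcode were 3512.5 and 2905.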

How the results depend on the processing

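No paired analysis was possible because each condition has 1 library. Counts of genes past the fold depended on the UMI minimum and on depth, and no count is a test. Values below are genes higher and lower in members over the other mature neutrophils (25 and 10), over the Tnfrsf23/Ccdc126 neutrophils (35 and 32) and over the Retnlg/Mmp8 neutrophils (16 and 26), then genes higher and lower in the library labelled 4T1m (94 and 61). Those not named stayed within 1.5 times.

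With at least 20 UMIs the counts were 41 and 33, 80 and 57, 35 and 48, and 255 and 290. With at least 200 UMIs they were 9 and 1, 9 and 12, 3 and 11, and 43 and 31. The library labelled 4T1p alone gave 138 and 79, 155 and 75, and 69 and 47, and that labelled 4T1m alone 50 and 59, 92 and 59, and 37 and 42, since 1 library has to pass in place of 2. Rule and levels after thinning to 1000 UMIs gave 10 and 1, 22 and 12, 19 and 12, and 58 and 23. At most 5% mitochondrial UMIs gave 15 and 6, 21 and 21, 15 and 24, and 61 and 34. The mean of per-cell CPM gave 38 higher than the other mature neutrophils and moved the share of higher calls over the Tnfrsf23/Ccdc126 neutrophils from 52.2% to 66.2%. Centring gave 8 higher than the Retnlg/Mmp8 neutrophils, and totals without mitochondrial, ribosomal and S100a8/S100a9 UMIs 9. Centring also moved the share of higher calls over the Tnfrsf23/Ccdc126 neutrophils to 44.4% and that between libraries from 60.6% to 51.0%.

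Against the other mature neutrophils, B of at least 3 gave 22 and 5, B above A 19 and 34, M below 5 UMIs 16 higher, and a Ptprc UMI 16 higher. M below 5 UMIs also gave 19 lower than the Tnfrsf23/Ccdc126 neutrophils and 33 lower between libraries. Members were 73.3% and 61.9% of gated mature neutrophils with B of at least 3 and 71.1% and 63.0% with B above A. As a share of kept barcodes of the library labelled 4T1m they were 17.8% and 18.2% under these rules. With M below 5 UMIs the share in the library labelled 4T1p was 10.6%. Thinning gave 17.5% and 28.2% of kept barcodes and a Ptprc UMI 19.7% and 25.1%.

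4 alternatives were chosen after the data were seen. The rule on 1 portion of the UMIs gave 73.7% and 69.0% of gated mature neutrophils, 15 and 1 genes, 19 lower than the Tnfrsf23/Ccdc126 neutrophils, 16 lower than the Retnlg/Mmp8 neutrophils and 32 lower between libraries. Leaving out 2 barcodes of members labelled 4T1p gave 40 lower between libraries and turned Fabp4 to 0.35. Leaving out 3 barcodes of the other mature neutrophils turned Hspa1b to 0.24. Leaving out the barcode of the comparison group with the most UMIs of the gene turned Cxcl3 to 0.13 and Ccl3 to 0.77 in the library labelled 4T1p and Jund to 0.056 and Rsad2 to 0.64 in that labelled 4T1m over the other mature neutrophils, and in the library labelled 4T1p Ccl3 to 0.72 over the Tnfrsf23/Ccdc126 neutrophils and Cxcl1 to 0.081 over the Retnlg/Mmp8 neutrophils. Thinning turned Rnf7 to 0.67 and Zfos1 to 0.48 over the other mature neutrophils and Rnf7 to 0.21 over the Tnfrsf23/Ccdc126 neutrophils, and leaving out doublets turned Ccl5 to 0.066 over the Retnlg/Mmp8 neutrophils. The causes were not tested. Of the values of single genes under all alternatives, 1054 stayed within the counting interval, 102 moved beyond it with the same sign and 12 turned.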
